A study of Mus musculus with 26 samples.

Results

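Genes of the Notch pathway were followed in nuclei of the developing mouse cortex, and above all in its progenitors. The list held 10 genes, chosen by symbol: the receptors Notch1 and Notch2, the ligands Dll1, Dll3 and Jag1, the receptor-modifying enzyme Mfng, the DNA-binding factor Rbpj and the target genes Hes1, Hes5 and Hey1. All 10 were found among the 30406 genes shared by the count tables of 8 single-nucleus RNA-seq libraries. The 41539 nuclei that passed the filters of at least 500 UMIs (unique molecular identifiers, each counting 1 captured RNA molecule) and 200 genes, and that were not called doublets, included 4916 apical progenitor-like (AP-like) and 4858 intermediate progenitor-like (IP-like) nuclei.

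Notch receptors are cleaved once a ligand on a neighbouring cell binds them, and the freed intracellular part joins Rbpj on DNA to switch on genes of the Hes and Hey families. These encode repressors of proneural genes such as Neurog2. In the embryonic cortex the pathway is known for holding apical progenitors, the radial glia that line the ventricle, in a dividing and undifferentiated state. Ligand-bearing daughter cells that leave the ventricular surface, among them intermediate progenitors, present the signal to the progenitors that remain.

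The libraries came from male C57Bl/6N embryos whose dams were injected at E12.5 with poly(I:C), a double-stranded RNA mimic that produces maternal immune activation (MIA), or with saline. Prospective somatosensory cortex was taken at E15.5 from wild-type (WT) embryos and from Csf1r-/- embryos (Csf1r-null), which carry the deletion in every cell and, as background, lack microglia. The 4 groups, WT saline, WT MIA, Csf1r-null saline and Csf1r-null MIA, held 2 libraries each, numbered 1 and 2, and some libraries pooled embryos. The study used fewer dams than libraries, with WT littermates of Csf1r-null embryos, so some libraries share a dam, the unit that was injected. Since the labels do not tie libraries to litters, p-values measure the spread between these libraries only, and those for MIA may be too small.

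The libraries held between 9274724 and 16483563 UMIs in 4386 to 5891 nuclei, with a median of 1451 to 2917 UMIs per nucleus, and pairs of libraries shared 0 to 14 barcodes. The replicate number also stood for the software version, the gene list and the barcode filter of the deposited tables. Csf1r gave 23, 11, 22 and 0 UMIs in WT saline 1 and 2 and WT MIA 1 and 2, and 4, 10, 2 and 1 UMIs in Csf1r-null saline 1 and 2 and Csf1r-null MIA 1 and 2. Microglia-like nuclei numbered 9, 6, 9, 0, 0, 7, 0 and 0 in the same order, so the library labelled WT MIA 2 and the library labelled Csf1r-null saline 2 went against their genotype labels. Another library, WT saline 1, stood apart by a cluster with striatal neuron markers, which made up 20.3% of its nuclei and at most 0.951% of any other library. Where leaving out one of these 3 libraries moved a group difference most, the value without it stands beside the result.

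Nuclei were classed by clustering on genes that included none of the 10 listed genes, no other gene of the pathway and no Csf1r, and clusters were named from fixed marker lists. Names followed the cell type list of highest mean log2 enrichment, 3.02 and 2.87 for apical progenitor markers in the AP-like clusters. For intermediate progenitor markers it was 2.92, 2.05 and 2.23 in the IP-like clusters. Migrating neuron-like clusters had 2.13 and 0.92 for their list. The lower had callosal projection neuron markers next at 0.59 and 21.8% of its nuclei in replicate 1. Projection neuron-like clusters ran from 0.2 to 1.73, with 2.0% to 96.0% of their nuclei in replicate 1. Both AP-like clusters detected 10 of 10 apical progenitor markers, with Sox2, Pax6, Vim and Slc1a3 among them. Every IP-like cluster detected 7 of 7 intermediate progenitor markers, with Eomes and Neurog2 among them. Detection did not tell the classes apart, since AP-like nuclei also detected 7 of 7 intermediate and IP-like nuclei 10 of 10 apical progenitor markers. Nuclei were also classed by the list with most markers detected. The same class was then given to 82.2% of AP-like, 68.1% of IP-like, 33.8% of migrating neuron-like and 43.0% of projection neuron-like nuclei. Of the AP-like nuclei, 1778 lay in a cluster high in mitotic genes such as Top2a (dividing, mean log2 enrichment of the markers 3.08) and 3138 in one lower in them (called not dividing, 1.38). The IP-like nuclei split into 969 dividing and 3889 not dividing. Levels are given as CPM, the UMIs of a gene summed over all nuclei of a class in 1 library and scaled to the same total in every sum. A CPM of a class does not tell more nuclei with the transcript from more transcript in each nucleus, and it is not corrected for transcript length, so levels are compared between classes and libraries and not between genes.

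The promoter sequences of 4 members are shown because they hold motifs linked with the pathway: the Rbpj core GTGGGAA, read by the Notch effector, and the E-box CAGCTG, the kind of site that proneural factors read. The windows are those of RefSeq on GRCm38.p6, 250 bases before to 50 bases after an annotated start, and capitals mark a motif match on either strand. Windows were used for 7 of the 10 members, 9 in all, and those of Hes1, Hey1 and Mfng were not analysed here. The Rbpj core lay in 6.38% of all 32851 windows and, among these 7 members, in that of Hes5 alone, with 2 matches that begin 226 and 83 bases before the start, the first read as TTCCCAC on the strand shown. The E-box lay in 16.3% of all windows and among the same 7 in those of Dll3, of Jag1 and in 1 of 2 windows of Dll1. The windows shown are chr4:154960673-154960972 on the plus strand for Hes5, and on the minus strand chr17:15376883-15377182 for Dll1, chr7:28301736-28302035 for Dll3 and chr2:137116471-137116770 for Jag1, whose E-box begins 82 bases before the start. A match is a run of letters and was not tested for binding.
Hes5: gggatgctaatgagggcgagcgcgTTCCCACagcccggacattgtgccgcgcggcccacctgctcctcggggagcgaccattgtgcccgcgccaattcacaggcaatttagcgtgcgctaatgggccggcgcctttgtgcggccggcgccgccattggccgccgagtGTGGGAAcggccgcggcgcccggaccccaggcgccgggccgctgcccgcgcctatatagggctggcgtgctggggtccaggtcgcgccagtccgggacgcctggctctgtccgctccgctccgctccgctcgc
Dll1: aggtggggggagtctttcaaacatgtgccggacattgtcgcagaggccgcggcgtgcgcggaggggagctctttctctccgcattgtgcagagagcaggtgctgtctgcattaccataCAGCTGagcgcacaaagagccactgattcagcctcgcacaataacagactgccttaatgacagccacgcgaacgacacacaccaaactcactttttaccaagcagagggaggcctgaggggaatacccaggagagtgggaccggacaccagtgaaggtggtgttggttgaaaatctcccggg
Dll3: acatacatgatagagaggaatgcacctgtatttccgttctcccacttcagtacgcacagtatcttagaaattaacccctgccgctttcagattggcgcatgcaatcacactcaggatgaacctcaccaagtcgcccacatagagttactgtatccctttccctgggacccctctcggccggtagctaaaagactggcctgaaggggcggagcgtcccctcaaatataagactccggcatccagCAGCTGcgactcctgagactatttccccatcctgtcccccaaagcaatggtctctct
Jag1: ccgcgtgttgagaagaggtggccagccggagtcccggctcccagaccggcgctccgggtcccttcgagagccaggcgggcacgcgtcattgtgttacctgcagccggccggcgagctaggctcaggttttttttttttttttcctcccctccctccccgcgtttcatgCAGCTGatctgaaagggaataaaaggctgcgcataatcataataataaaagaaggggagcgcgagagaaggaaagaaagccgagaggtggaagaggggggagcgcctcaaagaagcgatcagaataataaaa

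Of the 10 genes, 6 stood higher in AP-like nuclei and 3 higher in IP-like nuclei, while Rbpj stood at nearly the same level in both. Receptors and target genes were higher in AP-like nuclei: Hes1 by 30.01-fold, Notch2 by 12.8-fold, Hes5 by 9.66-fold and Notch1 and Hey1 by 2.71-fold each, while Jag1 was higher by 4.54-fold. The Delta-like ligands and the glycosyltransferase gene Mfng lay on the other side, with Dll3, Mfng and Dll1 lower in AP-like than in IP-like nuclei. In edgeR's quasi-likelihood test with the library as a block, 10 of 10 members differed between the 2 classes at an adjusted p under 0.05, 6 higher and 4 lower in AP-like nuclei, against a background of 62.1% of the 9992 genes tested. Most genes tested differed between these classes, so the count alone does not set the members apart from other genes. The classes were cut from the same nuclei by other genes, so these p-values describe how alike the difference was in 8 libraries, not a comparison of samples.

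**Figure D1:**
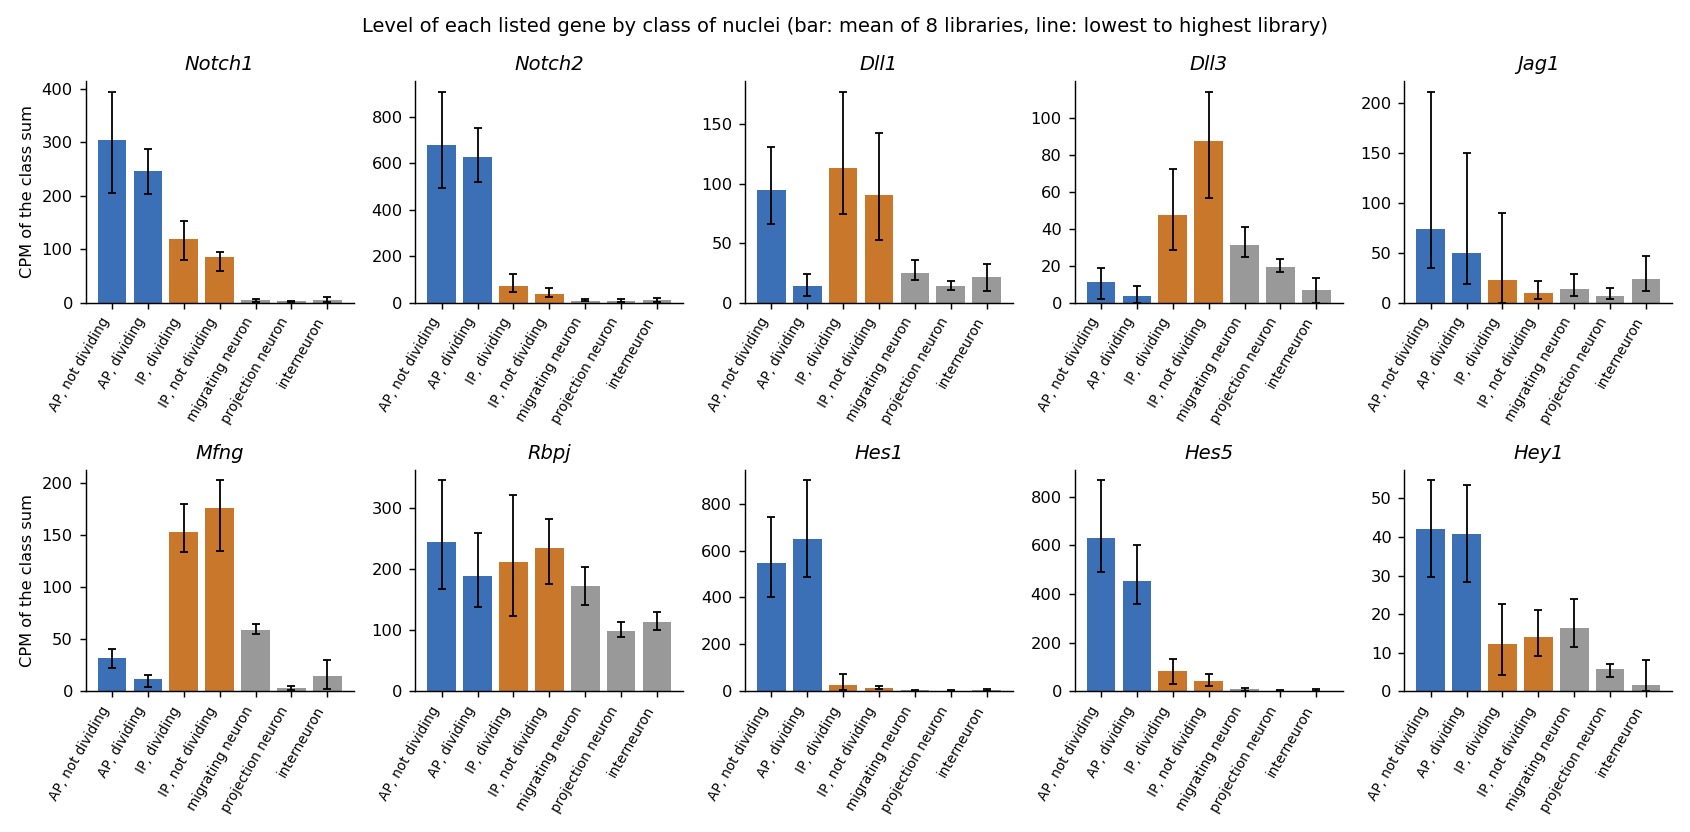
Level of each listed gene (CPM of the class sum, y axis from 0, a scale of its own for each gene) in 7 classes of nuclei. Bars are means of 8 libraries and lines run from the lowest to the highest library, with AP-like classes in blue, IP-like classes in orange and neurons in grey. Hes1, Hes5 and Notch2 stand high in both AP-like classes, Mfng and Dll3 in both IP-like classes, and Dll1 is low in dividing AP-like nuclei at a mean of 14.1 CPM.

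Notch1 (chr2:26457903-26516663, minus strand, GRCm38 with GENCODE M21 as for the genes that follow) encodes the receptor best known in radial glia. Its level in AP-like nuclei ran from 204 to 328 CPM with a median of 285 CPM, and in IP-like nuclei from 64.4 to 99.9 CPM. The ranges did not overlap, and AP-like nuclei were higher in 8 of 8 libraries, with a log2 fold change of 1.44 (SE 0.068, adjusted p = 7.5e-22, edgeR). Between IP-like nuclei and migrating neurons Notch1 went from 92.0 ± 11.5 CPM to 5.00 ± 2.00 CPM (SD, n = 8 libraries), a log2 fold change of 4.03 (SE 0.134).

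Notch2 (chr3:98013527-98150361, plus strand), the second receptor, fell earlier. It stood between 503 and 839 CPM in AP-like nuclei and between 27.7 and 73.4 CPM in IP-like nuclei, and no library overlapped. The log2 fold change between these classes was 3.68 (SE 0.076), and a further 2.23 (SE 0.136) separated IP-like nuclei from migrating neurons. The mean went from 654 CPM in AP-like to 45.1 CPM in IP-like nuclei for Notch2, and from 277 to 92.0 CPM for Notch1, whose larger step was the next one, to migrating neurons.

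Dll1 (chr17:15367354-15376872, minus strand) encodes a ligand that activates Notch on neighbouring cells. AP-like nuclei held 57.3 ± 10.96 CPM and IP-like nuclei 95.7 ± 28.5 CPM (SD, n = 8), and IP-like nuclei were the higher class in 7 of 8 libraries, WT saline 1 being the exception. The log2 fold change of AP-like against IP-like nuclei was -0.83 (SE 0.121, adjusted p = 1.2e-07, edgeR), though the ranges over libraries overlapped. Its size depended on the processing, from -1.98 to -0.70 over 14 alternatives. With classes by most markers the means were 32.8 CPM in AP-like and 121 CPM in IP-like nuclei. Migrating neurons were lower again at 25.3 ± 6.35 CPM, with a log2 fold change of 1.74 (SE 0.104) between IP-like nuclei and them.

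Dll3 (chr7:28293553-28302238, minus strand) encodes a divergent Delta-like protein that is known to act inside the cell. It was at 7.64 ± 2.87 CPM in AP-like nuclei, 79.3 ± 14.2 CPM in IP-like nuclei and 31.1 ± 5.37 CPM in migrating neurons (SD, n = 8). No AP-like value reached an IP-like one, and the log2 fold change between both was -3.49 (SE 0.145, adjusted p = 7.7e-24, edgeR). Its AP-like level rested on 73 UMIs in all libraries together.

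Jag1 (chr2:137081456-137116644, minus strand), a ligand of the other, Serrate-like kind, was the only ligand of the 3 that was higher in AP-like nuclei, with a log2 fold change of 2.18 (SE 0.135, adjusted p = 7.1e-18, edgeR). It ran from 26.4 to 186 CPM in AP-like and from 3.36 to 40.2 CPM in IP-like nuclei. Within every library AP-like nuclei were higher, while the ranges overlapped through the single library WT saline 1. Between IP-like nuclei and migrating neurons Jag1 did not pass the test, at -0.33 (SE 0.196, adjusted p = 0.153), and without WT saline 1 it did, at -0.60 (adjusted p = 0.0217).

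Mfng (chr15:78755882-78773475, minus strand) encodes Manic fringe, an enzyme that adds a sugar to Notch receptors and so changes which ligands they answer to. It was at 22.6 ± 4.06 CPM in AP-like nuclei, 171 ± 16.5 CPM in IP-like nuclei and 59.2 ± 2.61 CPM in migrating neurons (SD, n = 8). All 8 libraries gave this order with no overlap between classes. The log2 fold change of AP-like against IP-like nuclei was -3.05 (SE 0.092, adjusted p = 7.2e-29, edgeR).

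Rbpj (chr5:53466152-53657362, plus strand) encodes the DNA-binding partner of the cleaved receptor. It was at 219 ± 51.2 CPM in AP-like, 229 ± 40.9 CPM in IP-like and 173 ± 20.9 CPM in migrating neuron-like nuclei, and at 99.5 ± 7.78 CPM in projection neurons (SD, n = 8). The difference between AP-like and IP-like nuclei passed the test at -0.24 (SE 0.065, adjusted p = 0.0016, edgeR), but AP-like nuclei were higher by CPM in 3 of 8 libraries and the mean log2 difference by CPM was -0.071. The edgeR value carries trimmed-mean scaling and the CPM value does not, and the same offset is seen in the co-activator gene Ep300, at 144 and 145 CPM but -0.16 by edgeR.

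Hes1 (chr16:30064384-30067796, plus strand) and Hes5 (chr4:154960923-154962371, plus strand) encode the repressors through which Notch is known to act in radial glia. Hes1 ran from 443 to 804 CPM in AP-like nuclei and from 11.3 to 29.1 CPM in IP-like nuclei, and its log2 fold change of 4.91 (SE 0.089, adjusted p = 2.7e-36, edgeR) ranked 5 among all genes tested by p. Hes5 ran from 428 to 750.2 CPM and from 21.8 to 74.1 CPM, with a log2 fold change of 3.27 (SE 0.087). For both genes every AP-like value lay far above every IP-like value. Hes1 in AP-like nuclei also separated by replicate number, at 443 to 487 CPM in the 4 libraries numbered 1 and 620.2 to 804 CPM in the 4 numbered 2. Whether that gap came from the software, the gene list, the animals or the day cannot be told apart.

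Hey1 (chr3:8663359-8667256, minus strand), another target gene, was at 41.6 ± 6.76 CPM in AP-like, 13.8 ± 3.77 CPM in IP-like and 16.4 ± 5.14 CPM in migrating neuron-like nuclei (SD, n = 8). The step from AP-like to IP-like nuclei was clear of overlap, at a log2 fold change of 1.44 (SE 0.1503). The next step was -0.41 (SE 0.176, adjusted p = 0.042, edgeR), a call that was lost without WT saline 2, without WT MIA 2, without Csf1r-null MIA 1, with at least 1000 UMIs per nucleus, with classes by most markers and by DESeq2.

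From IP-like nuclei to migrating neurons 9 of 10 members were called, 8 of them higher in IP-like nuclei, against a background of 55.4% of 10146 genes. Jag1 was the member not called and Hey1 the member that was lower in IP-like nuclei. In projection neurons Notch1 was at 2.24 CPM, Hes1 at 2.96 CPM and Hes5 at 3.32 CPM, each below its mean in every progenitor class. Dll1 was at 14.3 CPM and Dll3 at 19.3 CPM there.

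The share of nuclei with a UMI was compared next. Nuclei were thinned to 1000 UMIs each, which left out 830 AP-like, 879 IP-like and 887 projection neuron-like nuclei with fewer. Notch2 was then detected in a median of 44.2% of AP-like nuclei per library (62.3% before thinning), in 4.19% of IP-like nuclei (9.34%) and in 0.873% of projection neurons (2.10%). Hes1 was detected in 38.4%, 1.36% and 0.297% of the same classes after thinning (50.5%, 2.67% and 0.777% before). Hes5 was detected in 33.0%, 4.87% and 0.407% (48.7%, 7.92% and 0.895% before). Projection neurons, as background, should hold little of these transcripts, and the median share of IP-like nuclei was above theirs for each. The ranges over libraries overlapped for Notch2, where the lowest IP-like share was 1.28% and the highest of projection neurons 1.51%, and not for Hes1 or Hes5. Free RNA was not measured, and its part in these shares was not tested. Dll1 was found in 4.28% of AP-like and 7.43% of IP-like nuclei against 1.32% of projection neurons (6.13%, 13.8% and 3.87% before thinning), and at this depth a nucleus without a Dll1 UMI may still hold the transcript. Unthinned median depths per library were 1163 to 2349 UMIs in AP-like and 1760 to 3350 UMIs in projection neuron-like nuclei.

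Vascular nuclei held a further pattern. The 57 pericyte-like nuclei had Jag1 at 376 ± 196 CPM, Notch1 at 239 ± 87.5 CPM and Hes1 at 272 ± 124 CPM (SD, n = 8 libraries), from 45, 32 and 43 UMIs. Their cluster had a mean log2 enrichment of 6.36 for pericyte and 4.5 for endothelium markers, so these levels cannot be assigned to pericytes alone. Neither Dll1 nor Dll3 gave a UMI there, which allows a level of up to 21.5 CPM. The 31 microglia-like nuclei gave 16 UMIs of Rbpj and none of Hes1, Hes5, Hey1, Jag1 or Dll3, which allows up to 55.1 CPM for each. These limits cover counting error only.

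Within AP-like nuclei the members also differed between the dividing cluster and the rest. Dll1 showed the widest gap, at 5.35 to 23.8 CPM in dividing and 66.0 to 131 CPM in not dividing AP-like nuclei. The ranges did not overlap, and the mean log2 difference over 8 libraries was -2.14 (SD 0.51). Mfng was lower in dividing nuclei as well, at 11.5 against 31.9 CPM (mean log2 difference -0.98, SD 0.37), with no overlap. Hes1 went the other way in all 8 libraries, at 647 against 547 CPM (0.24, SD 0.17), while Hes5 was lower in dividing nuclei in all 8, at 454 against 630.2 CPM (-0.46, SD 0.067). The 2 Hes genes thus differed in sign between the same nuclei. Notch1, Jag1 and Rbpj were lower in dividing nuclei in 8 of 8 libraries, at mean log2 differences of -0.28, -0.51 and -0.35. Dll3 was lower in 7 of 8, at -0.66 (SD 0.51) with overlapping ranges, and Notch2 and Hey1 showed no common sign, at -0.090 and -0.039.

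Among IP-like nuclei the dividing ones were nearer to AP-like nuclei in Notch1, Notch2, Hes5 and Dll3. The other members did not share this in all libraries. Notch1 (120 against 84.5 CPM), Notch2 (73.4 against 38.0 CPM) and Hes5 (83.3 against 42.7 CPM) were higher in dividing IP-like nuclei in 8 of 8 libraries. Dll3 was lower in 8 of 8, at 47.3 against 87.6 CPM. Dll1, at 113 against 90.7 CPM, was higher in 6 of 8, so the gap seen between dividing and not dividing AP-like nuclei was not seen here. Hes1 was higher in 5 of 8 (mean log2 difference 0.26, SD 0.75) and Jag1 in 6 of 8 (0.38, SD 0.86). Rbpj was higher in 2 of 8 (-0.18), Mfng in 3 of 8 (-0.19) and Hey1, a gene higher in AP-like nuclei, in 2 of 8 (-0.18). The clusters were cut on variable genes and labelled from mitotic markers afterwards, so they may differ in more than division. The list next in mean log2 enrichment was intermediate progenitor (0.54) in the not dividing AP-like cluster and oligodendrocyte precursor (0.88) in the dividing one. All these differences between dividing and not dividing nuclei are given without a test.

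The split of Dll1 within AP-like nuclei allowed a look at ligand and target in the same nuclei. AP-like nuclei thinned to 1000 UMIs were divided into 197 with a Dll1 UMI, 17 to 37 per library, and 3889 without, and 830 had too few UMIs. Hes5 stood at 629.6, 389, 297, 857, 353, 316, 484 and 250 CPM in nuclei with Dll1, in the order WT saline 1 and 2, WT MIA 1 and 2, Csf1r-null saline 1 and 2 and Csf1r-null MIA 1 and 2. In nuclei without Dll1 it stood at 662, 623, 437, 738, 551, 576, 480.2 and 472 CPM. The values with Dll1 rest on 17, 7, 11, 24, 6, 6, 15 and 5 Hes5 UMIs in the same order. Hes5 was lower in nuclei with Dll1 in 6 of 8 libraries, WT MIA 2 and Csf1r-null MIA 1 being higher. The mean log2 difference was -0.43 (SD 0.42, n = 8), with p = 0.0469 in a two-sided exact sign-flip permutation test over libraries whose smallest possible p is 0.0078. The call was lost without thinning (p = 0.0547, exact), with doublets kept (p = 0.109, exact) and on leaving out 6 of the 8 libraries in turn, each time with the same sign.

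Hes1, a value with no test, was lower in nuclei with Dll1 in 8 of 8 libraries, at 253 against 626 CPM (mean log2 difference -1.52, SD 0.92). It rested on 1 to 13 UMIs per library in nuclei with Dll1. Notch2 was lower in 7 of 8 (-0.72, SD 0.58) and Notch1 higher in 8 of 8 (0.44, SD 0.40). Mfng was higher in 8 of 8 at 1.49 (SD 0.76), though from 15 UMIs in the nuclei with Dll1. The same nuclei held more of the neurogenic genes: Neurog2 was higher by 2.30 (SD 0.27) and Eomes by 2.85 (SD 0.80) on the log2 scale, each in 8 of 8 libraries. The apical progenitor marker Sox2 was lower in 8 of 8 libraries. Its gap ran from 167 against 487 CPM in WT saline 2 to 450 against 477 CPM in Csf1r-null MIA 2. When nuclei were classed by their own markers instead of by cluster, Dll1 in AP-like nuclei was at 32.8 CPM in place of 57.3 CPM. The mitotic gene Top2a stood at 335 against 770 CPM (-1.25, SD 0.45), lower with Dll1 in 8 of 8. A further split was chosen after seeing these values, so its p is no independent support. Within the AP-like cluster called not dividing, whose markers of division still stood above the other nuclei at a mean log2 enrichment of 1.38, Top2a differed by -0.057 (SD 0.66). Hes5 was lower with Dll1 there in 8 of 8 libraries at -0.92 (SD 0.73), with p = 0.0078, the smallest that the exact sign-flip permutation test can give. The parts of division and of nuclei near the IP-like class in the Hes5 difference were not tested.

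**Figure D2:**
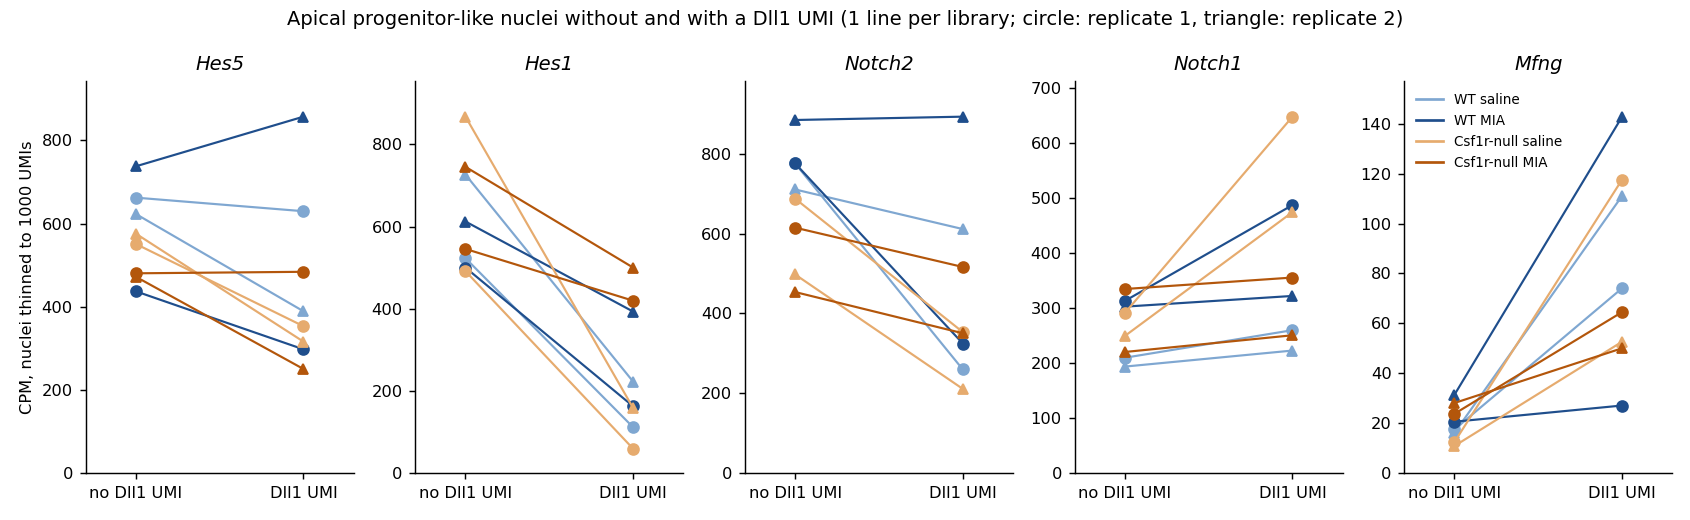
Level of 5 listed genes (CPM, y axis from 0) in AP-like nuclei thinned to 1000 UMIs, without and with a Dll1 UMI. Each line joins the 2 values of 1 library, with colours for groups and circles and triangles for replicates 1 and 2. Hes1 falls along all 8 lines, Hes5 along 6, and Notch1 and Mfng go up along all 8.

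The study asked whether the response of cortical cells to MIA needs microglia, and for the Notch genes this was put as MIA against saline in each genotype and as the difference between both. The study reported changes with MIA in several WT cell types, most of them lost in Csf1r-null. It used a mixed model on single nuclei, with similar results by DESeq2 on sums, so counts called here come from another main test. In AP-like nuclei 0 of 10 members passed an adjusted p of 0.05 with edgeR in WT, in Csf1r-null or in the difference between genotypes, against a background of 0% of 10828 genes. At an unadjusted p under 0.05 there were 2, 0 and 0 members, Notch1 and Jag1 in WT, beside 1001, 162 and 382 genes. DESeq2 called 49, 0 and 0 genes and no member. With the replicate number as a block, edgeR called 210, 0 and 0 genes and no member, with Jag1 at an adjusted p of 0.065 and Notch1 at 0.16 in WT. The median log2 fold change of the members was -0.024 in WT and -0.097 in Csf1r-null, beside 0.022 and -0.0091 over all genes.

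**Figure D3:**
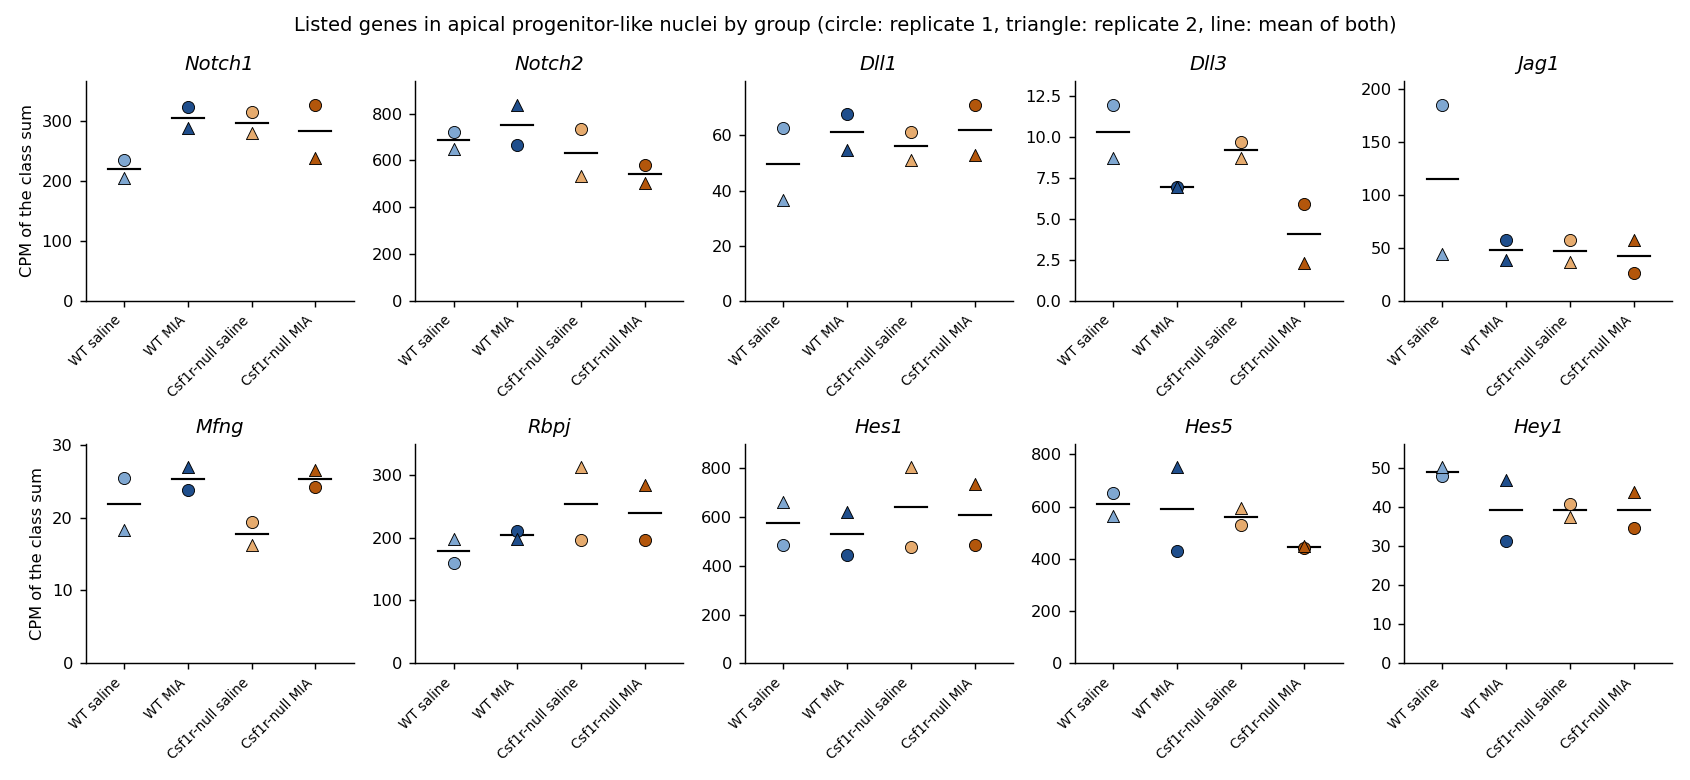
Level of each listed gene in AP-like nuclei (CPM of the class sum, y axis from 0) in the 4 groups. Circles are replicate 1, triangles replicate 2 and lines the mean of both. Both WT MIA libraries lie above both WT saline libraries for Notch1, and a single library, WT saline 1, at 186 CPM, sets the WT saline mean of Jag1.

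Notch1 in AP-like nuclei stood at 236 and 204 CPM in WT saline, 323 and 289 CPM in WT MIA, 314 and 281 CPM in Csf1r-null saline and 328 and 239 CPM in Csf1r-null MIA. The WT saline libraries were the lowest 2 of the 8, and WT MIA did not overlap with them, while the Csf1r-null groups overlapped. The log2 fold change with MIA was 0.40 in WT (SE 0.18, 95% interval 0.012 to 0.79, adjusted p = 0.53) and -0.092 in Csf1r-null (SE 0.18, -0.48 to 0.30, adjusted p = 1.00). The difference between genotypes was 0.49 (SE 0.25, -0.059 to 1.05, adjusted p = 1.00), so a response of Notch1 was called in neither genotype and its difference was not called. Within replicate numbers the WT change was 0.45 and 0.50, and without the library labelled WT MIA 2 it was 0.46 (adjusted p = 0.82). The AP-like sums of both WT saline libraries also stood apart in other lists. Red blood cell markers summed to 553 and 628 CPM there, with 5 and 6 of 6 detected, against 392 and 325 CPM in WT MIA and 174 to 365 CPM in Csf1r-null. Apical progenitor markers summed to 7973 and 6360 CPM against 5023 to 5653 CPM elsewhere, and their part in the Notch1 change was not tested. With the share of ribosomal protein and mitochondrial UMIs as a covariate, which ran from 3.51% to 5.98% and was highest in WT saline 2, the Notch1 change in WT was 0.20. In Csf1r-null it ran from -0.26 to 0.062 over 17 alternatives. Among saline libraries Csf1r-null exceeded WT by 0.39 (SE 0.18, adjusted p = 0.57), a comparison that shares the WT saline libraries with the WT change.

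Notch2 in AP-like nuclei was at 724 and 649.7 CPM in WT saline, 668 and 839 CPM in WT MIA, 735 and 533 CPM in Csf1r-null saline and 579 and 503 CPM in Csf1r-null MIA. The WT groups overlapped, and both Csf1r-null MIA libraries were below every WT library. Under MIA, Csf1r-null against WT gave -0.47 (SE 0.19, 95% interval -0.89 to -0.047, unadjusted p = 0.032, adjusted p = 1.00, edgeR), and -0.27 without the library labelled WT MIA 2. MIA against saline gave 0.064 (SE 0.19) in WT, which turned to -0.13 without WT MIA 2. In Csf1r-null it gave -0.24 (SE 0.19), or -0.41 without saline 2 and -0.042 without saline 1 of that genotype.

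Neither Delta-like ligand was called. Dll1 was at 62.8 and 36.6 CPM in WT saline, 67.8 and 54.6 CPM in WT MIA, 61.1 and 51.1 CPM in Csf1r-null saline and 71.2 and 53.0 CPM in Csf1r-null MIA. Replicate 1 exceeded replicate 2 in each group, and the groups overlapped. MIA against saline gave 0.22 (SE 0.25) in WT and 0.13 (SE 0.26) in Csf1r-null. Within replicate numbers Dll1 was higher with MIA in 4 of 4 pairs, by 0.11 and 0.56 in WT and by 0.22 and 0.051 in Csf1r-null, and the replicate block left the WT change not called (adjusted p = 0.63, edgeR). The WT value kept its sign in 14 of 17 alternatives: it was 0.61 without WT saline 1, -0.071 without WT saline 2 and with classes by most markers, and -0.20 with the ribosomal and mitochondrial covariate. Dll3 was lower in both MIA groups than in the saline group of the same genotype without overlap, at 11.97 and 8.68 against 6.95 and 6.93 CPM in WT and 9.70 and 8.73 against 5.88 and 2.31 CPM in Csf1r-null. These values rest on 2 to 16 UMIs per library, and the log2 fold changes were -0.65 (SE 0.49, adjusted p = 0.70) and -1.09 (SE 0.58, adjusted p = 1.00). The WT value was -0.45 without WT saline 1, and the Csf1r-null value -1.12 without saline 2 of that genotype. The Csf1r-null value ran from -1.90 without its MIA 1 to -0.30 with doublets kept, and was -0.72 without its MIA 2.

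Jag1 in AP-like nuclei was at 186 and 44.3 CPM in WT saline, 57.4 and 38.5 CPM in WT MIA, 57.2 and 36.2 CPM in Csf1r-null saline and 26.4 and 57.6 CPM in Csf1r-null MIA. WT saline 1 was far above the other 7 libraries, which overlapped between groups. The log2 fold change with MIA in WT was -1.33 (SE 0.53, adjusted p = 0.48), and without WT saline 1 it was -0.015 (adjusted p = 0.99). WT saline 1 was also the library with the striatal-type cluster, and its AP-like nuclei held markers of ventral progenitors at a summed 180 CPM with 6 of 6 detected, against 26.4 to 57.4 CPM elsewhere, and interneuron markers at 123 CPM with 10 of 10 detected, against 24.2 to 43.4 CPM. Their part in the Jag1 level was not tested. In Csf1r-null the change was -0.22 (SE 0.61), and ran from -0.91 without MIA 2 of that genotype to 0.34 without its MIA 1. The difference between genotypes was -1.11 (SE 0.80, adjusted p = 1.00), and it turned to 0.19 without WT saline 1. Among saline libraries Csf1r-null against WT gave -1.33 (SE 0.55, unadjusted p = 0.035, adjusted p = 0.57, edgeR), which rests on the same library and was -0.022 without it.

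Of the target genes, Hes5 in AP-like nuclei was at 653 and 563 CPM in WT saline, 428 and 750.2 CPM in WT MIA, 528 and 595 CPM in Csf1r-null saline and 443 and 449.6 CPM in Csf1r-null MIA. The WT MIA libraries enclosed both WT saline values, and both Csf1r-null MIA libraries lay below both Csf1r-null saline ones. The changes with MIA were -0.11 (SE 0.25, 95% interval -0.66 to 0.43) in WT and -0.35 (SE 0.25, -0.90 to 0.20) in Csf1r-null, and the difference between them was 0.24 (SE 0.35, -0.54 to 1.01), which turned to -0.25 without WT MIA 2 and to -0.39 with both libraries that went against their labels left out. In WT the sign turned with the replicate number, -0.61 in replicate 1 and 0.41 in replicate 2, where the second rests on the library labelled WT MIA 2. Without that library the WT change was -0.60 (adjusted p = 0.82), and the Csf1r-null change was -0.21 when the library labelled Csf1r-null saline 2 was left out.

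Hes1 was at 487 and 663 CPM in WT saline, 443 and 620.2 CPM in WT MIA, 478 and 804 CPM in Csf1r-null saline and 485 and 735 CPM in Csf1r-null MIA. The replicate number separated the libraries and the group did not. Its changes with MIA were -0.19 (SE 0.32) in WT and -0.087 (SE 0.32) in Csf1r-null. The first was -0.45 without WT saline 1, -0.48 without WT MIA 2 and 0.38 with the ribosomal and mitochondrial covariate. The second ran from -0.49 without Csf1r-null MIA 2 to 0.40 without saline 2 of that genotype. Within replicate numbers the Hes1 changes were -0.137 and -0.097 in WT and 0.019 and -0.129 in Csf1r-null. The fits behind the SEs held no replicate term, so those SEs include the gap between replicate numbers. Hey1 ran from 31.3 to 50.1 CPM over all 8 libraries, with changes of -0.41 (SE 0.26) in WT, or -0.74 without WT MIA 2 and -0.11 without WT MIA 1, and -0.031 (SE 0.29) in Csf1r-null, or -0.26 without MIA 2 and 0.22 without MIA 1 of that genotype. Rbpj ran from 160 to 312 CPM, with a change of 0.12 (SE 0.28) in WT, which ran from -0.088 without WT saline 1 to 0.56 with the ribosomal and mitochondrial covariate. In Csf1r-null the Rbpj change was -0.10 (SE 0.28), and ran from -0.46 without MIA 2 to 0.33 without saline 2 of that genotype. Mfng ran from 16.2 to 26.9 CPM, with a change of 0.12 (SE 0.28) in WT, which was 0.33 without WT saline 1, -0.047 without WT saline 2 and 0.015 without WT MIA 2. In Csf1r-null it was 0.48 (SE 0.31), and ran from 0.16 with classes by most markers to 0.62 without MIA 1 of that genotype. With all libraries each of these intervals held 0.

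**Figure D4:**
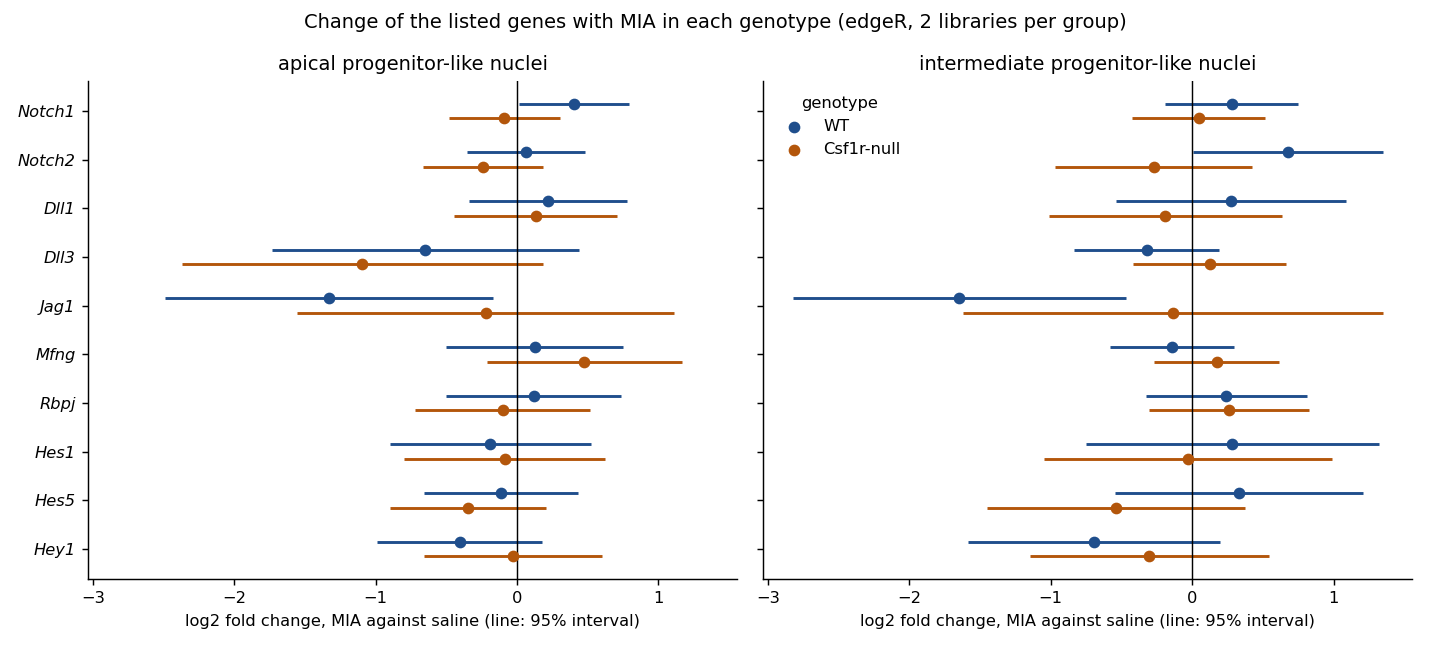
Log2 fold change of each listed gene with MIA against saline in WT (blue) and Csf1r-null (orange), in AP-like nuclei on the left and IP-like nuclei on the right, from edgeR with 2 libraries per group. Points are estimates and lines 95% intervals, unadjusted for the number of genes. The fits held no replicate term, so the intervals include the spread between replicate numbers. The intervals of WT Notch1 and Jag1 in AP-like nuclei and of WT Notch2 and Jag1 in IP-like nuclei leave out 0, and all others hold it.

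In IP-like nuclei, too, 0 of 10 members passed with edgeR in WT, in Csf1r-null or in the difference, against a background of 0% of 10248 genes. Unadjusted, 2, 0 and 0 members and 524, 157 and 301 genes were under 0.05, and DESeq2 called 0 genes in all 3. With the replicate block edgeR called 7, 0 and 0 genes and no member. The genotype comparisons, Csf1r-null against WT, also called 0 members and 0% of genes among saline and among MIA libraries in both classes. Among saline libraries DESeq2 called 29 genes in AP-like and 3 in IP-like nuclei and the block 75 and 14, no member among them. Unadjusted p were under 0.05 there for 947 and 605 genes, with Jag1 as 1 member in AP-like and Jag1 and Dll3 as 2 members in IP-like nuclei. Among MIA libraries they were under 0.05 for 136 and 142 genes, with Notch2 as the 1 member in each class, and DESeq2 called none.

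**Figure D5:**
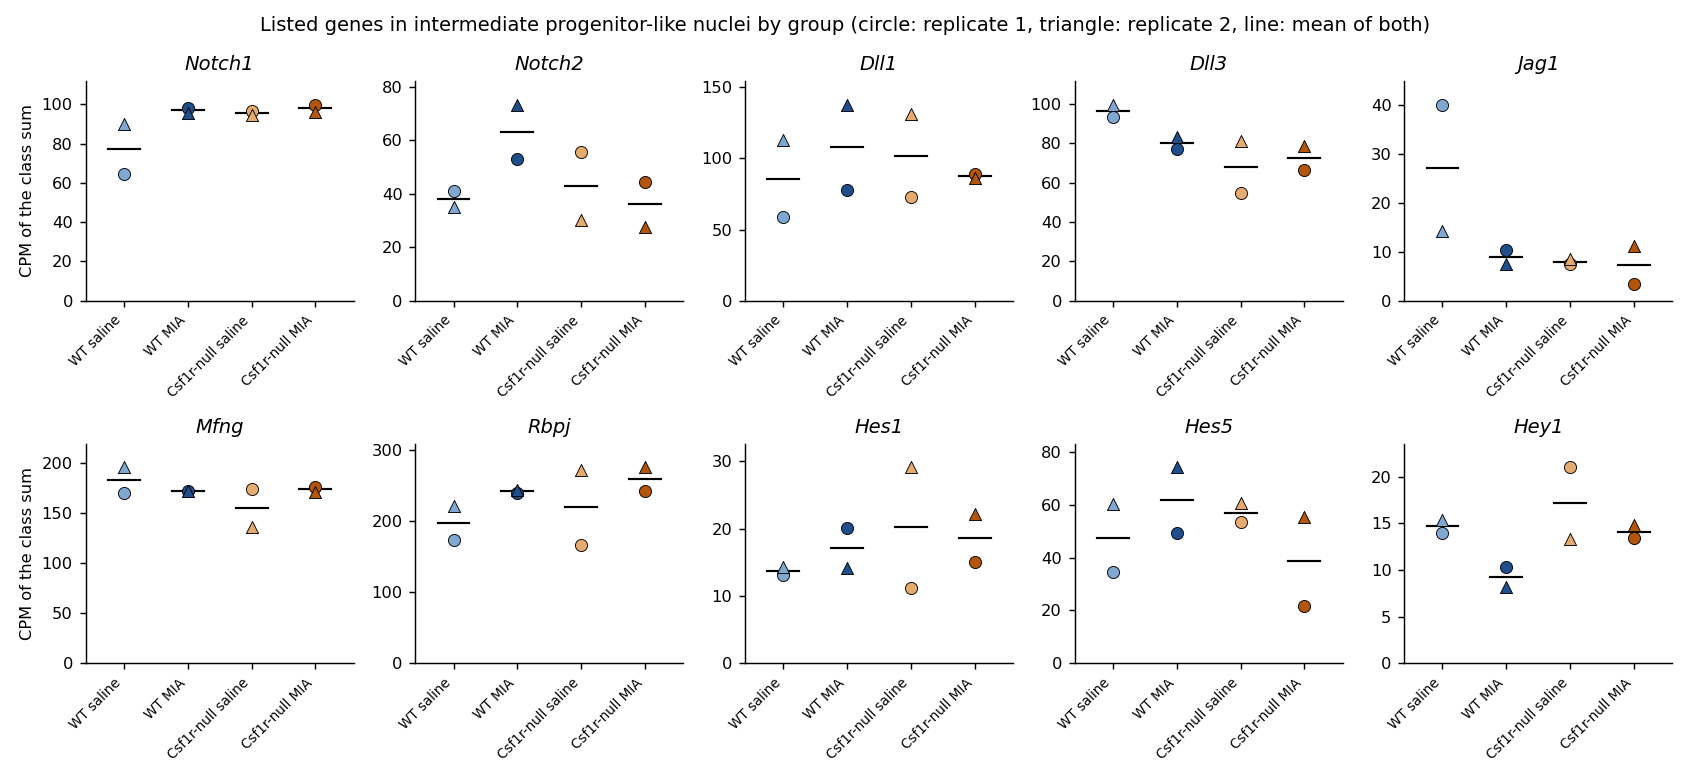
Level of each listed gene in IP-like nuclei (CPM of the class sum, y axis from 0) in the 4 groups, with circles for replicate 1, triangles for replicate 2 and lines for the mean of both. WT saline 1 is the lowest library for Notch1 at 64.4 CPM and the highest for Jag1 at 40.2 CPM.

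Notch2 in IP-like nuclei was at 41.1 and 35.1 CPM in WT saline, 53.1 and 73.4 CPM in WT MIA, 55.5 and 30.3 CPM in Csf1r-null saline and 44.5 and 27.7 CPM in Csf1r-null MIA. WT MIA lay above WT saline without overlap, and the Csf1r-null groups overlapped. The change with MIA was 0.68 in WT (SE 0.31, 95% interval 0.0074 to 1.35, adjusted p = 0.91) and -0.27 in Csf1r-null (SE 0.32, 95% interval -0.97 to 0.43), where 17 alternatives gave -0.61 to 0.24. The difference was 0.95 (SE 0.45, -0.018 to 1.92, adjusted p = 1.00). The higher of the WT MIA values was that of the library labelled WT MIA 2, which carried no Csf1r UMI, and without it the WT change was 0.39 (adjusted p = 1.00) and the difference 0.66. Leaving out Csf1r-null saline 1 brought the difference to 0.44, and leaving out saline 2 of that genotype to 1.25. Under MIA, Csf1r-null against WT gave -0.77 (SE 0.305, unadjusted p = 0.025, adjusted p = 1.00, edgeR), with both Csf1r-null MIA libraries below both of WT MIA, and -0.501 without WT MIA 2. This comparison shares the WT MIA libraries with the WT change.

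Notch1 in IP-like nuclei was at 64.4 and 89.9 CPM in WT saline and between 94.6 and 99.9 CPM in the other 6 libraries. The change with MIA was 0.28 (SE 0.22) in WT, or 0.0047 without WT saline 1 and 0.59 without WT saline 2, and 0.045 (SE 0.22) in Csf1r-null. Jag1 was at 40.2 and 14.2 CPM in WT saline and between 3.36 and 11.1 CPM in the others, with a WT change of -1.65 (SE 0.54, adjusted p = 0.91) that was -0.77 without WT saline 1. Among saline libraries Csf1r-null against WT gave -1.81 for Jag1 (SE 0.58, unadjusted p = 0.0089, adjusted p = 0.84, edgeR), or -0.93 without WT saline 1. The IP-like nuclei of WT saline 1 held ventral progenitor markers at 43.9 CPM, with 4 of 6 detected, against 14.3 to 21.9 CPM elsewhere, and interneuron markers at 115 against 25.9 to 37.2 CPM. Red blood cell markers in IP-like sums stood at 795 and 658 CPM in WT saline against 212 to 367 CPM elsewhere. The part of these markers was not tested.

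The other members were not called with MIA in IP-like nuclei either. Dll1 was at 58.8 and 113 CPM in WT saline, 77.5 and 138 CPM in WT MIA, 72.8 and 131 CPM in Csf1r-null saline and 89.0 and 85.9 CPM in Csf1r-null MIA. All groups overlapped, and replicate 2 was the higher in 3 of 4. The change with MIA was 0.28 (SE 0.37) in WT, which turned to -0.17 without WT saline 1 and -0.23 without WT MIA 2 and went to 0.87 without WT saline 2. In Csf1r-null it was -0.19 (SE 0.38), which turned to 0.31 without saline 2 and went to -0.597 without saline 1 of that genotype. Within replicate numbers Dll1 changed by 0.392 and 0.287 in WT and by 0.286 and -0.603 in Csf1r-null. Mfng was at 170.0 and 196 CPM in WT saline, 173 and 172 CPM in WT MIA, 175 and 136 CPM in Csf1r-null saline and 176 and 172 CPM in Csf1r-null MIA. Its change with MIA was -0.14 (SE 0.20, 95% interval -0.58 to 0.30) in WT and 0.17 (SE 0.20, -0.27 to 0.62) in Csf1r-null, where leaving out saline 2, which went against its label, gave 0.035 and leaving out saline 1 gave 0.34. The WT value ran from -0.29 to 0.023 over 17 alternatives. Dll3 ran from 54.8 to 99.7 CPM, with changes of -0.32 (SE 0.24) in WT and 0.12 (SE 0.25) in Csf1r-null, or 0.44 without Csf1r-null saline 2 and -0.18 without saline 1. Among saline libraries Dll3 was lower in Csf1r-null than in WT by 0.56 on the log2 scale without overlap (SE 0.25, adjusted p = 0.84), or by 0.88 without the library labelled Csf1r-null saline 2.

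The target genes stood low in IP-like nuclei, and neither they nor Rbpj were called. Hes5 ran from 21.8 CPM, in Csf1r-null MIA 1, to 74.1 CPM. Its change with MIA was 0.33 (SE 0.40) in WT, which went to -0.072 without WT saline 1, -0.018 without WT MIA 2 and 0.84 without WT saline 2. In Csf1r-null it was -0.54 (SE 0.42), which went to 0.029 without Csf1r-null MIA 1 and -1.41 without Csf1r-null MIA 2. Within replicate numbers the Hes5 change was 0.504 and 0.294 in WT and -1.25 and -0.128 in Csf1r-null. Each genotype thus kept its sign in both pairs, while the fits without a replicate term changed sign on leaving out single libraries. Hes1 was at 13.1 and 14.2 CPM in WT saline, 20.1 and 14.1 CPM in WT MIA, 11.3 and 29.1 CPM in Csf1r-null saline and 15.1 and 22.2 CPM in Csf1r-null MIA, with groups that overlapped. MIA against saline gave 0.28 (SE 0.48) in WT and -0.030 (SE 0.47) in Csf1r-null, the first from 0.029 without WT MIA 1 to 0.48 without WT MIA 2, the second from -0.66 without saline 1 to 0.76 without saline 2 of that genotype. Hey1 was at 14.01 and 15.3 CPM in WT saline and 10.4 and 8.16 CPM in WT MIA, lower without overlap at -0.70 (SE 0.41, adjusted p = 0.93, edgeR). These values rest on 15 and 14 UMIs with saline and 17 and 11 with MIA, and the change ran from -0.85 to -0.36 over 17 alternatives. In Csf1r-null Hey1 was at 21.0 and 13.3 CPM with saline and 13.4 and 14.8 CPM with MIA, at -0.30 (SE 0.39). The Csf1r-null value turned to 0.064 without saline 1 of that genotype and was -0.53 without its saline 2 and -0.65 with classes by most markers. Rbpj was at 173 and 221 CPM in WT saline and 239.8 and 244 CPM in WT MIA, higher without overlap at 0.24 (SE 0.26, adjusted p = 0.95, edgeR), or 0.024 without WT saline 1 and 0.49 without WT saline 2. In Csf1r-null it was at 166 and 272 CPM with saline and 243 and 275 CPM with MIA, at 0.26 (SE 0.26), or 0.69 without the library labelled Csf1r-null saline 2 and -0.081 without saline 1.

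Signs were also counted pair by pair. Taken within replicate numbers, the WT change in AP-like nuclei had 1 sign in both replicates for 7 of 10 members (3 higher, 4 lower with MIA) and for 6 of 10 in Csf1r-null (2 higher, 4 lower). In IP-like nuclei it was 8 of 10 in WT (5 higher, 3 lower) and 5 of 10 in Csf1r-null (3 higher, 2 lower). The share of all genes with 1 sign in both replicates was not taken. These counts therefore do not set the members apart from other genes. Leaving out both libraries that went against their labels left WT MIA and Csf1r-null saline with 1 library each, assumed to vary like the other groups, and such a fit can call little. It called no member and says nothing about stability.

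The rest of the pathway was described by 46 further genes, of which filters on low counts left 32 for AP-like against IP-like nuclei. Of these, 22 were called, 7 higher and 15 lower in AP-like nuclei, beside the background of 62.1% of all genes tested. The 7 were Lfng, a second fringe enzyme (126 against 3.93 CPM, log2 fold change 4.75, SE 0.152), the receptor gene Notch3 (84.1 against 10.5 CPM, 2.85, SE 0.140), the co-activator gene Maml2 (1.502), the degradation factor gene Fbxw7 (1.15), the receptor protease gene Adam17 (0.65), Pofut1 (0.37) and the target gene Nrarp (0.31). The 2 fringe genes thus lay on opposite sides, Lfng in AP-like and Mfng in IP-like nuclei. Among the 15 lower genes were Hes6, a Hes relative known to oppose Hes1 (197 against 662 CPM, -1.89, SE 0.064), Numbl, which with Numb restrains Notch (20.8 against 76.3 CPM, -2.02, SE 0.109), and Ncstn of gamma-secretase (-0.85). A further 11 ran from Dtx1 at -0.70 to Ep300 at -0.16, with Aph1b, Dtx3, Crebbp, Maml3, Spen, Mib1, Rfng, Itch and Adam10 between. By CPM some of these were nearly level, Ep300 at 144 against 145, Adam10 at 168 against 177, Itch at 290 against 307 and Rfng at 39.0 against 41.5. The offset of edgeR's scaling against CPM, given above for Rbpj, enters their calls as lower.

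From IP-like nuclei to migrating neurons 15 of 29 tested pathway genes were called, beside the background of 55.4% of all genes tested. Higher in IP-like nuclei were 11, among them Nrarp (62.4 against 8.80 CPM, 2.64, SE 0.130), Hes6 (1.83, SE 0.052), Numb (0.68) and Maml3 (0.59), with Pofut1, Adam17, Ncstn, Mib1, Itch and Numbl between 0.42 and 0.19. Lower were 4, the ubiquitin ligase gene Dtx1 (-1.93, SE 0.133), Psen2 (-0.73), Rfng (-0.61) and Crebbp (-0.26, at 241 against 259 CPM).

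With MIA or genotype edgeR called none of these genes, 0 of 34 tested in AP-like and 0 of 32 in IP-like nuclei in any of 5 comparisons each. Unadjusted p were under 0.05 for 3 in WT MIA against saline, 2 in the difference between genotypes and 3 between the saline groups in AP-like nuclei, for 1, 2 and 1 in WT MIA, the saline groups and the MIA groups in IP-like nuclei, and for 0 in the others. Over all genes 0% were called and the same unadjusted counts were 1001, 382 and 947 of 10828 in AP-like nuclei and 524, 605 and 142 of 10248 in IP-like nuclei, so 3 of 34 pathway genes in WT AP-like nuclei was close to the background. In WT AP-like nuclei those of lowest p included Psenen (-0.60, SE 0.25), a subunit of the receptor-cleaving gamma-secretase, and Mib1 (0.46, SE 0.20), a ligand ubiquitin ligase, at adjusted p of 0.50 and 0.52 with edgeR. In the difference between genotypes Lfng was among them at 0.72 (SE 0.29, adjusted p = 1.00), from -0.37 in Csf1r-null.

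Over the 40 sums of 5 classes and 8 libraries, the genes most like each member in level were named by Pearson's r of log2(CPM + 10) among 9325 candidates, as a description only, since the points share libraries and classes. Notch1 was closest to Dock1 (r = 0.992) and to the cell-cycle genes Esco2 and Spc24, Notch2 to Zfp36l1 (0.993), Lrp4 and Mfge8, Hes5 to Id4 (0.984), Mfge8 and Lrp4, and Hes1 to S1pr1 (0.990), Plce1 and Sox8. Dll1 was closest to Slc16a14 (0.942) and the proneural gene Neurog2 (0.934), Dll3 to Igsf21 (0.948), Mfng to Mfap4 (0.966) and Hey1 to Tcf7l2 (0.948). Neurog2 and Mfap4 are both markers used for IP-like nuclei. Of the neighbours named so far, all but Dock1, Slc16a14 and Igsf21 took part in the clustering, so their pattern over classes was partly built in. Rbpj (Zfp664, 0.925) and Jag1 (Cntnap2, 0.841) had the loosest neighbours. Among the members themselves r was 0.979 for Notch2 and Hes5 and 0.973 for Notch2 and Hes1, and -0.35 for Dll3 and Hes1.

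AP-like nuclei made up 12.97% ± 1.52 of nuclei in the 4 MIA libraries and 10.8% ± 0.92 in the 4 saline libraries (SD, n = 4), with p = 0.0556 in a two-sided exact permutation test within genotypes, the smallest p that the design allows. The means differed by 2.20 percentage points. The test takes libraries as independent, which those of 1 dam are not. The study, with a binomial mixed model on nuclei, reported no change in the shares of non-microglial cell types. WT MIA 2, which went against its label, held the highest share at 14.8%, and Csf1r-null saline 2, the other such library, held 10.9%. Without WT MIA 2 the difference was 1.58 percentage points (p = 0.111, exact permutation test), and without both it was 1.61 (p = 0.222, exact permutation test, smallest possible 0.111). Within replicate numbers AP-like shares were higher with MIA in 4 of 4 pairs, by 1.77 and 3.64 points in WT and 3.03 and 0.353 points in Csf1r-null, and the exact sign-flip permutation test over these pairs, as a replicate block, gave p = 0.125, the smallest it can give. IP-like nuclei made up 12.6% ± 2.40 and 10.7% ± 0.77 (p = 0.222, exact permutation test), a difference of 1.88 points that was 0.776 without WT MIA 2. The striatal-type cluster of WT saline 1 enters the total of that library, so shares were also taken of the nuclei outside that cluster. Like the values without libraries and within pairs, this was chosen after seeing the data. AP-like nuclei then made up 14.5% of WT saline 1, and 13.01% ± 1.53 of the MIA and 11.5% ± 2.13 of the saline libraries, a difference of 1.46 percentage points (p = 0.167, exact permutation test). IP-like nuclei made up 12.6% ± 2.41 and 11.3% ± 0.65 (p = 0.444, exact permutation test).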

How the data were processed

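Nuclei from 8 libraries (4 groups of 2) were sequenced with 10x Genomics 3′ chemistry. The authors deposited UMI counts per gene and barcode, not normalized, counted with Cell Ranger on mm10: per the file headers, version 3.1.0 with all barcodes listed for replicate 1 and 6.0.1 with called barcodes for replicate 2. Genes were joined by Ensembl ID (30406 shared), and nuclei with at least 500 UMIs and 200 genes were kept (43456, less 1917 doublets removed at 0.8% per 1000 nuclei). No column belonged to another sample.

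Nuclei were clustered in scanpy 1.11.5 (2000 variable genes, 30 components, 20 neighbours, Leiden resolution 1), without any Notch pathway gene, and named from fixed markers, at least 3 detected. Counts were summed per library and class and tested with edgeR 4.0.16 (R 4.3.3; quasi-likelihood, TMM, filterByExpr, Benjamini-Hochberg over all genes, threshold 0.05). Group comparisons used 1 term per group, and class comparisons the library as a block. The SEs and intervals of group comparisons, with no replicate term, thus include any spread between replicate numbers. DESeq2 1.42.0, RLE scaling, no filter, a ribosomal and mitochondrial covariate, other nucleus filters and classes, and leaving out each library were alternatives. Group fits that leave out a library held no replicate term, so each also unbalances the replicate numbers. Scripts were tested on simulated data.

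Same-numbered libraries deviated together (correlations of 0.467 to 0.538 in AP-like and 0.421 to 0.621 in IP-like sums over 6 pairs each), so a fit with the replicate number as a block is given where it changes a count. All 10 members were tested in every comparison, though not every value of theirs is printed. Other pathway genes were named where called, or else the 3 of lowest p at 20 CPM or more, less some that are not reported here. Neighbours were the 3 of highest r. Members and lists were chosen with earlier results of these data known. Log2 differences by CPM used a pseudocount of 10 CPM, and those within a replicate number 1 CPM. Promoter windows came from RefSeq and gene positions from GENCODE M21.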

Additional observations from a re-analysis of the deposited data

Results flagged for a closer look

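A check for a single library far from the others was run on 39 sets of 8 libraries, and 5 were past the limit of Dixon's test at the 95% level. Chance alone gives about 1 in 20. WT saline 1 stood apart in 3 of the 5. Jag1 in its AP-like nuclei was at 185.5 CPM against 26.4 to 57.6 CPM in the other libraries, and in its IP-like nuclei at 40.2 CPM against 3.36 to 14.2 CPM. Notch1 in its IP-like nuclei was at 64.4 CPM against 89.9 to 99.9 CPM. The ventral and interneuron marker sums of this library stand beside the Jag1 results, and their part was not tested. Mfng in IP-like nuclei was at 135.9 CPM in Csf1r-null saline 2, a library whose Csf1r UMIs went against its label, and at 170.0 to 196 CPM elsewhere. For Hey1, the log2 difference between AP-like nuclei with and without a Dll1 UMI was 0.65 in WT MIA 1 and -2.69 to -1.99 in the other 7. These values rest on 2 Hey1 UMIs in all nuclei with Dll1, both in WT MIA 1. The other libraries held 0 there, so the pseudocount of 10 CPM limits their differences, and the flag says little about Hey1.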

How the results depend on the processing

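Of 20 class differences of the listed genes, 19 kept their sign and 18 stayed called in every alternative. Of 100 group differences 39 kept their sign, and 2 of 1700 refits called a member. Both calls were Jag1 in AP-like nuclei without the filter on low counts, in WT MIA against saline (adjusted p = 0.00012) and in Csf1r-null against WT saline (adjusted p = 0.00024), so 1 member in place of 0 in each. Over all genes the main edgeR fit called 0 in every group comparison. Without that filter the calls became 103 for WT MIA, 2 for Csf1r-null MIA and 8 for the difference in AP-like nuclei. They became 66 for Csf1r-null against WT saline and 3 under MIA there. In IP-like nuclei they became 8 for WT MIA, 2 for the difference, 12 for Csf1r-null against WT saline and 2 under MIA. DESeq2 called 49 and 29 genes in AP-like nuclei (WT MIA and saline genotypes) and 3 in IP-like nuclei (saline genotypes).

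The fit with the replicate number as a block called 210 genes for WT MIA and 75 for saline genotypes in AP-like nuclei, and 7, 14 and 1 for WT MIA, saline genotypes and MIA genotypes in IP-like nuclei. The block changed no call of a listed gene. Leaving out each library in turn gave 0 to 4 calls for WT MIA in AP-like nuclei, the 4 without WT saline 2.

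The Hes5 difference of -0.43 was -0.47 without thinning and -0.43 with doublets kept, at p of 0.0547 and 0.109 (exact permutation tests). Leaving out a library gave -0.52 to -0.36, and the call held without WT MIA 2 and without Csf1r-null MIA 1 (p of 0.031 to 0.094 over the 8, exact permutation tests that cannot go below 0.016). With 7 libraries the test has less reach by construction. Classing nuclei by most markers moved Dll1 in AP-like nuclei to 32.8 CPM, Notch1 in IP-like nuclei to 105.6 CPM and Hes5 in IP-like nuclei to 68.4 CPM. The causes were not tested. Depth limits Dll3 in AP-like nuclei, Jag1, Hes1 and Hey1 in IP-like nuclei, and every listed gene, Hes5 among them, in nuclei with Dll1, where few UMIs stand behind each value.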
